A study of Rattus norvegicus with 6 samples.

Results

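The genes of the mitochondrial ribosomal proteins were examined in cultured rat amniotic fluid cells. Members were the rows of the deposited gene table whose symbol was Mrpl or Mrps followed by a number and at most 1 letter. There were 75 of them among the 22085 genes of the table, 46 with an Mrpl and 29 with an Mrps symbol. The symbols mrpl9, mrpl11 and mrpl24 stand in lower case in the table, were not chosen by this rule and are given apart from the members.

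The cells came from amniotic fluid taken on embryonic day 18.5 from rats that model preeclampsia, in which maternal blood pressure rises during pregnancy, and from control pregnancies. They were grown in serum-containing medium and sequenced at passage 4, with 3 preeclampsia and 3 control libraries. The labels call all 6 mesenchymal stem cells. How preeclampsia was produced, the rat strain, and how many dams or fetuses each library holds are not stated in the labels, so p-values measure the spread between these libraries.

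Mitochondria keep a ribosome of their own, the mitoribosome, which translates only the mRNAs of the mitochondrial genome. Those mRNAs encode membrane subunits of the respiratory chain and of ATP synthase, while every protein of the mitoribosome is encoded in the nucleus, made in the cytosol and imported. Some mitoribosomal proteins are homologues of bacterial ribosomal proteins, and others have no counterpart at their place in the bacterial ribosome and are called mitochondria-specific here. Mrps18a and Mrps18b are counted as mitochondria-specific by their place in the mitoribosome, although their sequences are related to bacterial S18.

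Library totals ran between 48402185 and 59193961 counts. The mesenchymal markers Thy1, Vim, Col1a1 and Pdgfrb summed to 3540, 5282 and 3929 FPKM (fragments per kilobase of transcript, adjusted for library size, the level the authors deposited) in preeclampsia libraries 1 to 3, and to 3413, 4177 and 2775 FPKM in control libraries 1 to 3. The epithelial markers Epcam and Cdh1 were at or below 0.10 FPKM in every library, and with Krt8 and Krt18 they summed to 0.45, 1.56 and 1.43 FPKM in the preeclampsia libraries and to 1.7, 54.6 and 12.8 FPKM in the control libraries. Of these 4 epithelial markers 2 had counts enough to be tested, with log2 fold changes of -6.29 and -3.90. DESeq2 called both, and edgeR called 0 of them. The 3 endothelial markers summed to at most 3.22 FPKM. Marker genes of other cells nevertheless differed between libraries. The 5 macrophage and blood markers summed to 15.6, 231 and 127 FPKM in the preeclampsia libraries and to 80.5, 69.5 and 12.4 FPKM in the control libraries. The cycling markers Mki67, Top2a, Ccnb1 and Cdk1 summed to 150, 28.6 and 30.8 FPKM in the preeclampsia libraries and to 52.2, 87.4 and 30.8 FPKM in the control libraries. The mesothelial markers Msln, Upk3b and Wt1 summed to 17.9, 14.9 and 26.7 FPKM in the preeclampsia libraries and to 2.05, 11.7 and 4.84 FPKM in the control libraries. The 3 markers differed in direction, with log2 fold changes of 3.38 for Msln, -1.31 for Upk3b and -0.19 for Wt1, and edgeR called none of them while DESeq2 called Msln.

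The mitoribosomal protein genes were expressed throughout these cultures, at levels that spanned 203-fold in FPKM. This span and the order of the members rest on the deposited FPKM, and the transcript lengths behind them are not given in the sources used here. Counts order some members otherwise. Mrps6, the lowest in FPKM, had 145 to 364 counts in a library, against 100 to 257 for Mrps18c. Of the 75 members, 74 passed the filter on low counts, with at least 100 counts in every library and a median of 661. The exception was Mrps21l, with 0 counts in all 6 libraries. The mean level over the 6 libraries had a median of 11.2 FPKM over the 74 members, with quartiles of 6.39 and 20.4 FPKM, and 73 of the 74 lay above 1 FPKM.

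The most abundant in FPKM was Mrpl17, which encodes the homologue of bacterial L17. Mrpl17 stood at 101, 91.3 and 78.1 FPKM in preeclampsia libraries 1 to 3 and at 76.6, 85.7 and 93.6 FPKM in control libraries 1 to 3. Next came Mrpl49, a mitochondria-specific protein of the large subunit, with 74.8, 57.5 and 56.3 FPKM in the preeclampsia libraries and 61.4, 62.8 and 62.2 FPKM in the control libraries. The third was Mrpl3, the homologue of the bacterial L3 protein, with 49.3, 43.3 and 44.0 FPKM in the preeclampsia libraries and 42.5, 53.8 and 56.6 FPKM in the control libraries. All 3 are genes of the large subunit, and their preeclampsia and control libraries overlapped.

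At the other end stood Mrps6, the homologue of bacterial S6, with 0.62, 0.27 and 0.26 FPKM in the preeclampsia libraries and 0.45, 0.52 and 0.48 FPKM in the control libraries. Mrps36 was next, with 1.67, 1.46 and 1.52 FPKM in the preeclampsia libraries and 1.32, 1.71 and 1.49 FPKM in the control libraries. Mrps36 was named as a ribosomal protein, and its product is now known as a subunit of the 2-oxoglutarate dehydrogenase complex, so it is assigned to no subunit here. Mrpl33, the homologue of bacterial L33, had 1.75, 1.9 and 1.61 FPKM in the preeclampsia libraries and 1.5, 1.87 and 3.05 FPKM in the control libraries. Both Mrps6 and Mrpl33 share part of their annotated span with another gene on the same strand, 2447 bases with Slc5a3 for Mrps6 and 7532 bases with Babam2 for Mrpl33. Whether their exons overlap was not examined, and where they do, reads of the genes may not be told apart.

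Counted by the particle that holds the protein, 48 members belonged to the large and 25 to the small subunit. The median level was 11.2 FPKM for the large and 11.3 FPKM for the small subunit genes. Summed levels of the large over the small subunit genes gave ratios of 2.32, 2.29 and 2.26 in the preeclampsia libraries and of 2.28, 2.30 and 2.48 in the control libraries, which overlapped. The plot of levels by subunit shows each member in each library.

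**Figure D1:**
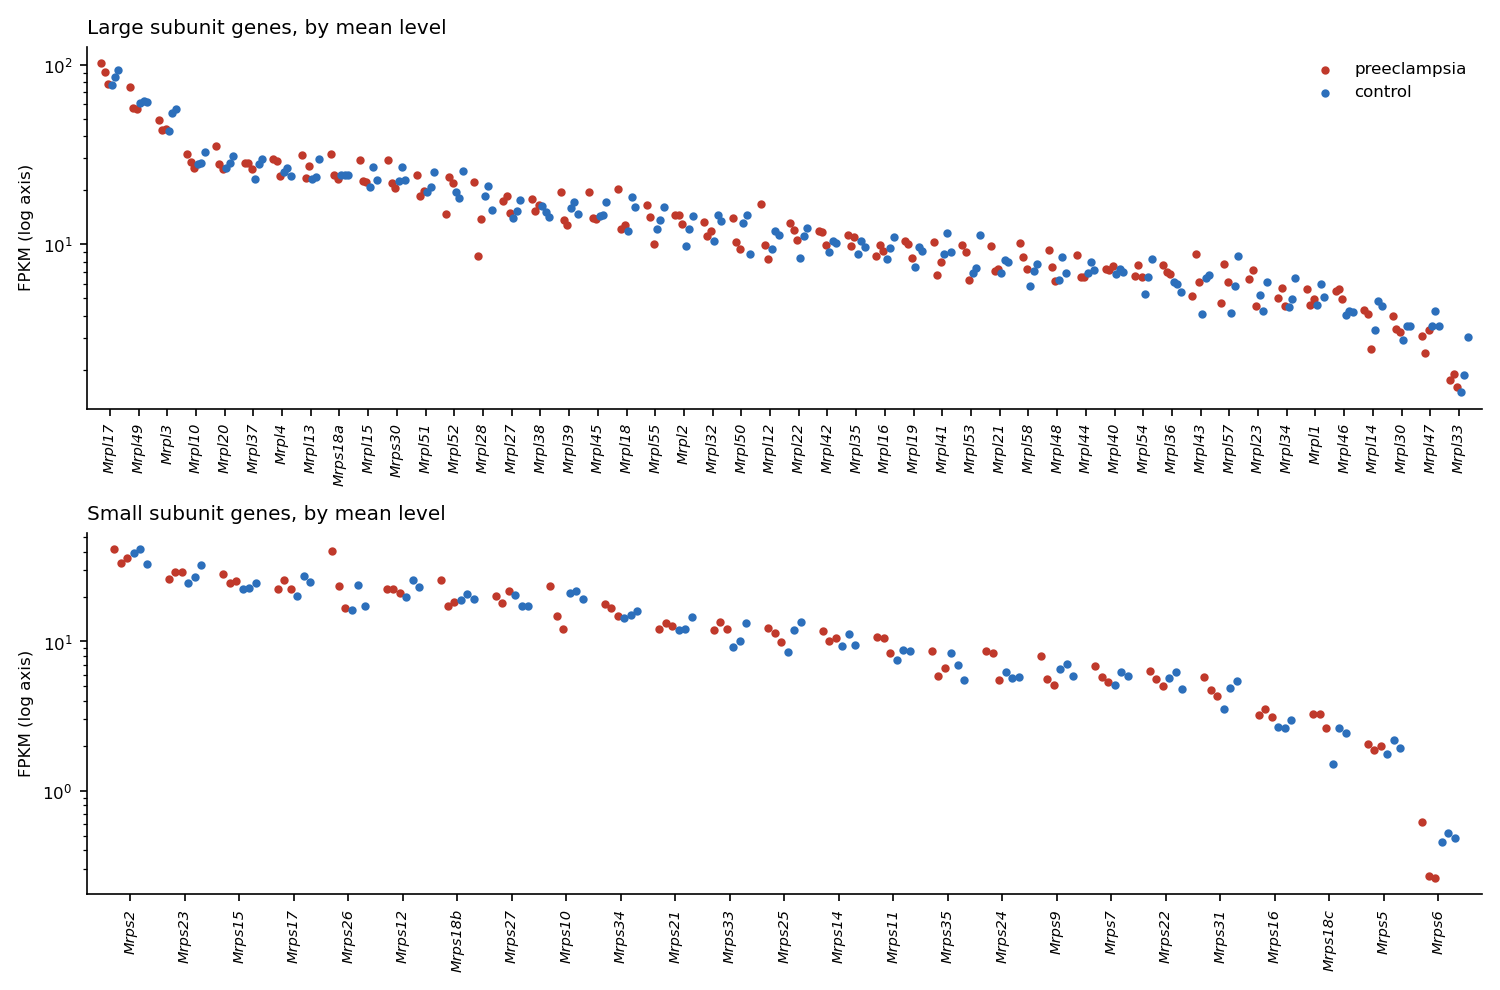
Level of each member in FPKM on a log axis, ordered by mean level, with large subunit genes above and small subunit genes below; each point is 1 library, preeclampsia libraries 1 to 3 in red at the left and control libraries 1 to 3 in blue at the right of each gene. Mrpl17 is the highest at a mean of 87.8 FPKM and Mrps6 the lowest at 0.433 FPKM; Mrps36 and Mrps21l, with no subunit assigned, are not drawn.

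The comparison of preeclampsia with control asked whether the mRNAs of the mitoribosome differed between cells of the 2 kinds of pregnancy. No member passed the test. At an adjusted p under 0.05, edgeR's quasi-likelihood test with Benjamini-Hochberg adjustment called 0 of the 74 members and 0 of all 15776 genes tested, a background of 0%. At an unadjusted p under 0.05 edgeR had 0 of the 74 members, against 9.19% of all genes tested. DESeq2 called 0 of the 74 members at an adjusted p under 0.05, against 2.22% of all genes tested. Adjusted p-values of the members ran between 0.549 and 0.999 in edgeR. In such bulk libraries fewer cells of a type and less RNA per cell cannot be told apart.

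The fold changes of the members lay close to 0 on the log2 scale, and their intervals were narrow. Fold changes, as preeclampsia over control, ran between -0.33 for Mrps6 and 0.50 for Mrps18c (log2), with a median of 0.07, against 0.01 over all genes tested. The 95% interval of the fold change stayed within 2-fold either way for 70 of the 74 members, 94.6%, against 53.7% of all genes tested. It stayed within 1.5-fold either way for 45 members, 60.8%, against 27.4% of all genes tested. These shares are not matched for level, since the median mean level was 11.2 FPKM over the members and 5.04 FPKM over all genes tested. The 4 members whose interval passed 2-fold were Mrpl28, Mrps18c, Mrps26 and Mrps6. The standard error of a log2 fold change had a median of 0.17 over the members, against 0.22 over the 12253 genes tested within the same range of mean FPKM. The highest library of a member stood at a median of 1.42 times the lowest, against 1.71 times over those 12253 genes. Those genes share the range of the members and were not matched to them in level within it.

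**Figure D2:**
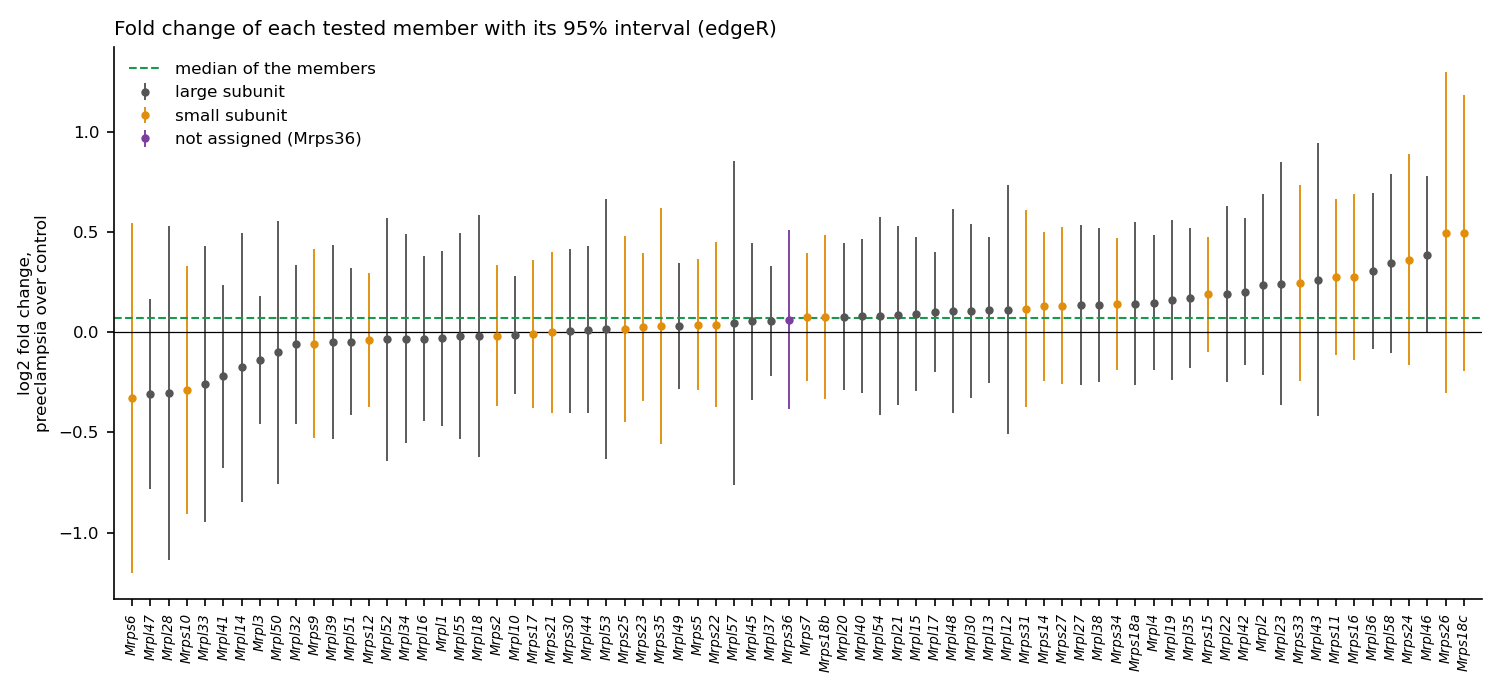
Log2 fold change, preeclampsia over control, of each of the 74 tested members with its 95% interval from edgeR, ordered by fold change and coloured by subunit; the dashed line is the members' median of 0.07. Every interval includes 0, and those of Mrpl28, Mrps18c, Mrps26 and Mrps6 pass 1 or -1, which is 2-fold.

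More members were higher than lower in preeclampsia, 50 against 24, or 67.6%, where 51.7% of all genes tested were higher. This count depended on single libraries. Without preeclampsia library 1 it was 39 of 74, with a median log2 fold change of 0.02, where 48.3% of all genes were higher. Without control library 1 it was 42 of 74, with a median of 0.04. Without preeclampsia library 3 it was 58 of 74, with a median of 0.11. The share of all genes that were higher also moved with the library left out. For the runs without control library 1 and without preeclampsia library 3 that share is not given here. Of the 48 large subunit genes 31 were higher and 17 lower, with a median of 0.07, and of the 25 small subunit genes 18 were higher and 7 lower, with a median of 0.08. Without preeclampsia library 1 the large subunit median turned to -0.01, with 23 higher and 25 lower, and the small subunit median was 0.05. Of the 31 mitochondria-specific members 26 were higher and 5 lower, and of the 42 homologues of bacterial proteins 23 were higher and 19 lower. Their medians were 0.06 for the mitochondria-specific members and 0.08 for the homologues. Without preeclampsia library 1 the mitochondria-specific members stood at 17 higher and 14 lower, and the homologues at 21 higher and 21 lower. Without control library 1 the mitochondria-specific members stood at 18 higher and 13 lower.

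The members also varied between libraries of 1 group. Each member's log2 CPM (counts scaled to library size) was set against its own mean over the 6 libraries. The median of these deviations over the 74 members was 0.15, 0.05 and -0.08 in preeclampsia libraries 1 to 3, and -0.12, 0.0042 and -0.03 in control libraries 1 to 3. Over all genes tested the same medians lay between -0.0069 and 0.018. Preeclampsia library 1 held the highest value of 40 of the 74 members, 54.1%, where 22.6% of all genes tested were highest there. Control library 1 held the lowest value of 41 members, 55.4%, where 19.1% of the genes tested with a level above 0 in every library were lowest there. Preeclampsia library 3 held the lowest value of another 17 members and the highest of 2. Preeclampsia library 1 was also the library with the highest sum of the cycling markers, 150 FPKM, and control library 1 stood at 52.2 FPKM, between control library 2 at 87.4 FPKM and control library 3 at 30.8 FPKM. The part of dividing cells in the levels of the members was not tested. Summed over the members, the level was 1266, 1085 and 1020 FPKM in the preeclampsia libraries and 1004, 1134 and 1143 FPKM in the control libraries. The means were 1124 ± 127 FPKM in preeclampsia and 1094 ± 77.5 FPKM in control (SD, n = 3 each), and the groups overlapped.

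**Figure D3:**
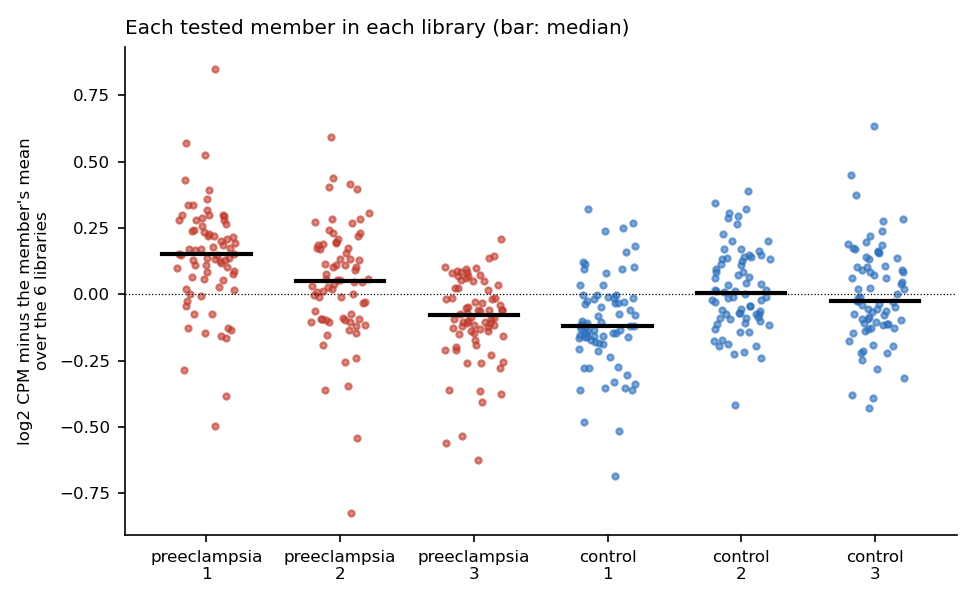
Deviation of each of the 74 tested members from its own mean over the 6 libraries, in log2 CPM, for preeclampsia libraries 1 to 3 (red) and control libraries 1 to 3 (blue); each point is 1 member and the bar is the median. The median is highest in preeclampsia library 1 at 0.15 and lowest in control library 1 at -0.12.

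In 5 members the preeclampsia and the control libraries did not overlap in FPKM. In 4 of them, Mrpl46, Mrpl36, Mrps15 and Mrps16, every preeclampsia library lay above every control library, 5.41% of the members, against 6.15% of all genes tested. In Mrpl47 every preeclampsia library lay below every control library, 1.35% of the members, against 8.32% of all genes tested. With any 1 library left out, between 8 and 16 members did not overlap, where groups of 3 and 2 libraries separate more often: 21.4% to 33.3% of all genes tested did so. Mrps15 and Mrps16 were named after their values were seen.

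Mrpl46, a mitochondria-specific protein of the large subunit, had the smallest p of the members. Its level was 5.51, 5.64 and 4.94 FPKM in the preeclampsia libraries and 4.05, 4.23 and 4.19 FPKM in the control libraries. The control libraries lay close together, and the lowest preeclampsia library was above the highest of them. The means were 5.36 ± 0.372 FPKM in preeclampsia and 4.16 ± 0.0945 FPKM in control (SD, n = 3 each). The log2 fold change was 0.39 with a standard error of 0.16, a fold of 1.31 with a 95% interval of 0.996 to 1.72. It was not called, at an adjusted p of 0.549 in edgeR and 0.198 in DESeq2. Mrpl46 spans chr1:132698872-132707639 on the minus strand, as the deposited table gives it.

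Mrps11, the homologue of bacterial S11 in the small subunit, lies next to Mrpl46 on the opposite strand, at chr1:132707601-132717253, and the 2 annotated spans share 39 bases at their starts. Its level was 10.7, 10.6 and 8.37 FPKM in the preeclampsia libraries and 7.49, 8.73 and 8.66 FPKM in the control libraries. Preeclampsia library 3 lay among the control libraries, so the groups overlapped. Its log2 fold change was 0.28 with a standard error of 0.16 and an adjusted p of 0.680 in edgeR. The pair was the only one of 2 members that start next to each other in opposite directions. In all, 24 of the 74 members, 32.4%, had the start of a gene on the other strand within 1000 bases upstream, with up to 200 bases of overlap allowed, where 16.8% of all genes tested did.

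Mrpl36, the homologue of the bacterial protein L36, had 7.65, 7.03 and 6.81 FPKM in the preeclampsia libraries and 6.15, 6.02 and 5.38 FPKM in the control libraries. The lowest preeclampsia library stood above the highest control library. For Mrpl36 the log2 fold change was 0.31 with a standard error of 0.16, a fold of 1.24 with an interval of 0.945 to 1.62, and an adjusted p of 0.640 in edgeR. The small subunit gene Mrps15, a homologue of bacterial S15, had 28.2, 24.6 and 25.6 FPKM in the preeclampsia libraries and 22.4, 22.8 and 24.5 FPKM in the control libraries. The gap between its groups was small, with preeclampsia library 2 next to control library 3. Its log2 fold change was 0.19 with a standard error of 0.12 and an adjusted p of 0.708 in edgeR. Mrps16, a homologue of bacterial S16, had 3.22, 3.53 and 3.11 FPKM in the preeclampsia libraries and 2.67, 2.63 and 2.98 FPKM in the control libraries. Here too the groups only just parted, between preeclampsia library 3 and control library 3. For Mrps16 the log2 fold change was 0.28 with a standard error of 0.17 and an adjusted p of 0.708 in edgeR.

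Mrpl47, the homologue of bacterial L29, was the member whose preeclampsia libraries all lay below the control libraries. Its level was 3.09, 2.48 and 3.34 FPKM in the preeclampsia libraries and 3.48, 4.23 and 3.49 FPKM in the control libraries. Preeclampsia library 3 came close to control libraries 1 and 3. In log2 CPM the groups of Mrpl47 overlapped, with a deviation of 0.035 in preeclampsia library 3 and of 0.021 in control library 3. The log2 fold change was -0.31 with a standard error of 0.20, a fold of 0.808 with an interval of 0.582 to 1.12, and an adjusted p of 0.712 in edgeR. Mrpl47 shares 560 annotated bases with Actl6a and 846 with Ndufb5 on the opposite strand. The sources used here do not say whether the counting used strand, and 18 of the members overlap a gene on the opposite strand.

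**Figure D4:**
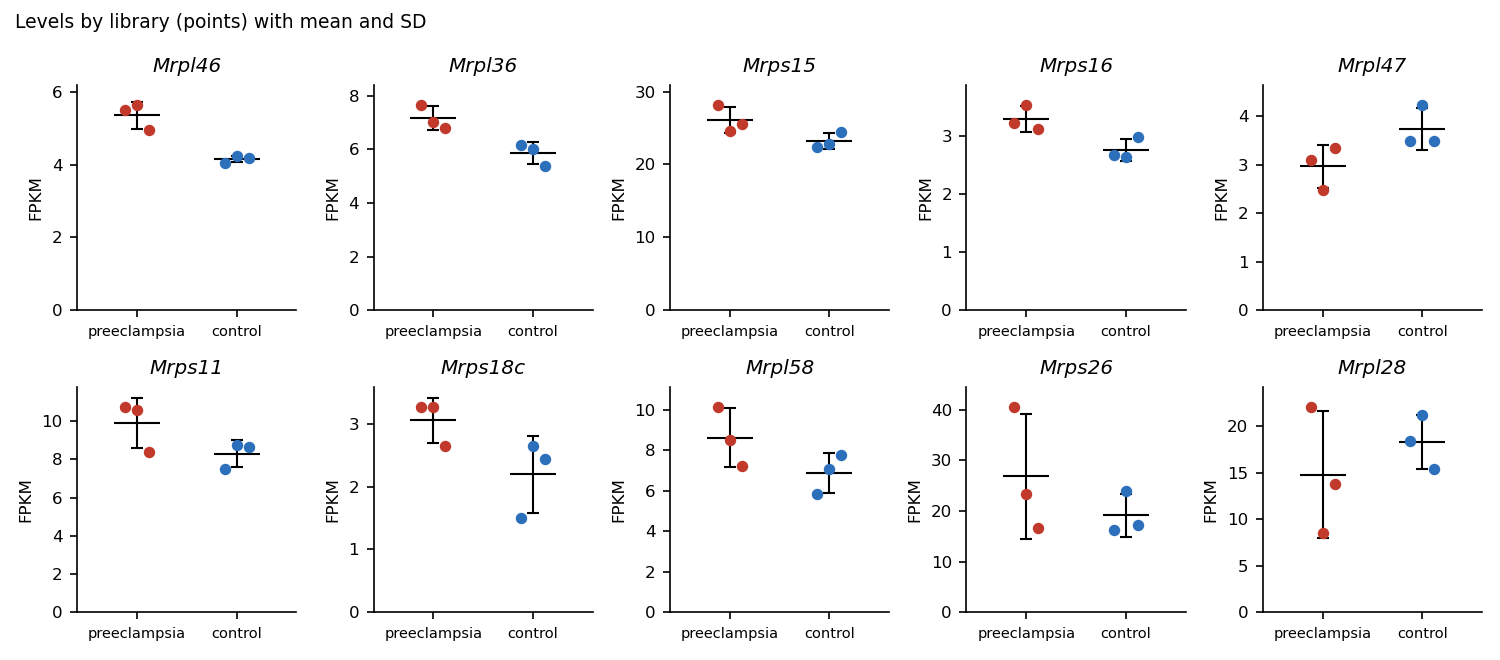
Level in FPKM of 10 members in the 3 preeclampsia libraries (red, left) and the 3 control libraries (blue, right), with the mean as a line and the SD as the error bar; every axis starts at 0. The upper row holds the 5 members whose groups do not overlap, and in the lower row Mrps11, Mrps18c, Mrpl58, Mrps26 and Mrpl28 overlap.

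The promoters of these 5 members are shown, with that of Mrpl17 as the most abundant member, because promoters of mitochondrial translation genes are known for sites of the factors NRF1, GABPA and YY1. Sequences are from RefSeq (GRCr8), 250 bases before to 50 bases after the annotated start, 5′ to 3′ on the strand of the gene, and their coordinates belong to GRCr8, not to the deposited table. Capitals mark exact matches on either strand to GCATGCGC (NRF1 core), CCGGAAGT (the ETS site of GABPA) or AAGATGGCG (YY1).
Mrpl46, chr1:142116981-142117280, minus strand: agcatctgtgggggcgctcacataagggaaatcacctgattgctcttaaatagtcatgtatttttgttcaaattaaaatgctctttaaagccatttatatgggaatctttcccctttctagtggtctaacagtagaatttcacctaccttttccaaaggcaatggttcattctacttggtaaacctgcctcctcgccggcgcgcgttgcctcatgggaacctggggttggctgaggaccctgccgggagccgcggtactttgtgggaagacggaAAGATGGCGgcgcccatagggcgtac
Mrpl36, chr1:31795072-31795371, minus strand: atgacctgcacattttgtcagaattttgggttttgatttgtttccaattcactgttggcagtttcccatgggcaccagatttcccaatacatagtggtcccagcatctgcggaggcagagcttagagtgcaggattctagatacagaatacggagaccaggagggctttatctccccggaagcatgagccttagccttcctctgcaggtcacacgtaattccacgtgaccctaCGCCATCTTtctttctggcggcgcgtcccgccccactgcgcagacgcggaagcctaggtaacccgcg
Mrps15, chr5:143605891-143606190, plus strand: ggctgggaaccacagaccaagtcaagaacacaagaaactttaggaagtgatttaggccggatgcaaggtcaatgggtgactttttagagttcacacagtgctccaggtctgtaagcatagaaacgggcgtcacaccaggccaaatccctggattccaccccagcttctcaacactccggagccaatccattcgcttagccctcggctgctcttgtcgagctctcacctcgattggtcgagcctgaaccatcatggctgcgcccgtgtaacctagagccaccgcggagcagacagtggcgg
Mrps16, chr15:3967559-3967858, plus strand: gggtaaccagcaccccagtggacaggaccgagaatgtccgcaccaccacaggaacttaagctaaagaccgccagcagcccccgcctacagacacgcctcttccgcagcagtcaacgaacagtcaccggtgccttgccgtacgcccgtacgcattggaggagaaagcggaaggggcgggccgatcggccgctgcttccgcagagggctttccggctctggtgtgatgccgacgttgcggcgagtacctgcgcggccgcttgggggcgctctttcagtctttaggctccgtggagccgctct
Mrpl47, chr2:117447312-117447611, minus strand: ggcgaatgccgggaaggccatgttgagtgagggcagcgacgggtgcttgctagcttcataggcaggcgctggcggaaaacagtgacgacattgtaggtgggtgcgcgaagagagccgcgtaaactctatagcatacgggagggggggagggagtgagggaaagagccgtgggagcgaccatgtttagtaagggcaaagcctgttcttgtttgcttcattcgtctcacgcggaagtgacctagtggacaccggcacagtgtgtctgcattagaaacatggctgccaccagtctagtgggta
Mrpl17, chr1:169575650-169575949, minus strand: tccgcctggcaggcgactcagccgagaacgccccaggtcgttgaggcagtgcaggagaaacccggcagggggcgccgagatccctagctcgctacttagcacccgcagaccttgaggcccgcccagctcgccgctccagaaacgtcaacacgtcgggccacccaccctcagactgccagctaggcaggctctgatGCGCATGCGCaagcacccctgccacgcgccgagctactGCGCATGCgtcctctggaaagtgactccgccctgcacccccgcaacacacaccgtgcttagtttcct

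In the window of Mrpl46 the YY1 letters began 24 bases after the start on the strand of the gene, and in that of Mrpl36 they began 17 bases before the start on the other strand. The windows of Mrps15, Mrps16 and Mrpl47 held none of the 3 motifs. That of Mrpl17 held 3 matches to the NRF1 core at 2 places, since the letters overlap with their own reverse complement at the first. The window of Mrps11 shared 267 bases with that of Mrpl46, the RefSeq starts of the pair being 234 bases apart.

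Promoters were found for 61 of the 75 members in a table of 27457 promoters, and their median GC content was 56.0%, against 52.3% over all promoters. The YY1 letters occurred in 9 member promoters, 14.8%, against 1.93% of all promoters. These letters contain ATG, the letters of a start codon, and whether the matches lie at start codons was not examined. The ETS letters occurred in 8, 13.1%, against 4.01%, and the NRF1 core in 5, 8.20%, against 2.66%. Together 21 of the 61 member promoters held at least 1 of these 3 motifs. The SP1 letters GGGCGG occurred in 31, 50.8%, against 34.9%, and the E-box CACGTG in 6, 9.84%, against 6.65%. These matches describe the letters in the window and are not evidence of binding.

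Among members with special roles, Mrpl58 encodes the peptidyl-tRNA hydrolase of the large subunit, also called ICT1, which frees stalled mitoribosomes. Its level was 10.1, 8.52 and 7.23 FPKM in the preeclampsia libraries and 5.82, 7.06 and 7.78 FPKM in the control libraries. Preeclampsia libraries 1 and 2 stood above all control libraries and library 3 among them. The log2 fold change was 0.34 with a standard error of 0.18 and an adjusted p of 0.651 in edgeR.

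Mrps18a, Mrps18b and Mrps18c encode paralogs related to bacterial S18. Mrps18a, whose product sits in the large subunit, had 31.8, 24.4 and 22.9 FPKM in the preeclampsia libraries and 24.1, 24.2 and 24.1 FPKM in the control libraries. Mrps18b, of the small subunit, had 26.0, 17.3 and 18.4 FPKM in the preeclampsia libraries and 19.0, 20.9 and 19.2 FPKM in the control libraries. For both, preeclampsia library 1 was the highest of the 6 and the groups overlapped. Mrps18c, also of the small subunit, had 3.26, 3.26 and 2.64 FPKM in the preeclampsia libraries and 1.5, 2.64 and 2.44 FPKM in the control libraries. The mean level of Mrps18a was 9.63 times that of Mrps18c per length of transcript. Control library 1 was the low one for Mrps18c, and preeclampsia library 3 met control library 2 at 2.64 FPKM. In log2 CPM the groups of Mrps18c did not overlap, with a deviation of 0.072 in preeclampsia library 3 and of 0.017 in control library 2. Its log2 fold change of 0.50 with a standard error of 0.29 was the largest of the members, and its adjusted p was 0.677 in edgeR. Log2 fold changes were 0.14 for Mrps18a and 0.08 for Mrps18b, with adjusted p-values of 0.858 and 0.925 in edgeR.

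Mrps26, a mitochondria-specific protein of the small subunit, rested on 1 library. It had 40.5, 23.4 and 16.7 FPKM in the preeclampsia libraries and 16.3, 24.0 and 17.2 FPKM in the control libraries. Preeclampsia library 1 alone lay above the control range, and the log2 fold change of 0.50 (standard error 0.33, adjusted p = 0.725 in edgeR) was 0.11 without it. Mrpl12, the stalk protein that recruits translation factors and is also known to bind the mitochondrial RNA polymerase, had 16.8, 9.83 and 8.31 FPKM in the preeclampsia libraries and 9.44, 11.9 and 11.3 FPKM in the control libraries. Preeclampsia library 1 was again above the control range while library 2 lay within it and library 3 below it. Its log2 fold change was 0.11 with a standard error of 0.26 and an adjusted p of 0.926 in edgeR, and it was -0.21 without preeclampsia library 1. Mrpl10, which anchors the stalk, had a log2 fold change of -0.01 and an interval of -0.31 to 0.28.

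Members lower in preeclampsia, none of them called, also split by library. Mrps10, the homologue of bacterial S10, had 23.6, 14.8 and 12.2 FPKM in the preeclampsia libraries and 21.0, 21.9 and 19.3 FPKM in the control libraries. Preeclampsia library 1 lay above all control libraries and libraries 2 and 3 below them. The log2 fold change was -0.29 with a standard error of 0.26 and an adjusted p of 0.805 in edgeR, and it was -0.57 without preeclampsia library 1. Mrpl28, the homologue of bacterial L28, had 22.1, 8.57 and 13.8 FPKM in the preeclampsia libraries and 18.4, 21.2 and 15.4 FPKM in the control libraries. It showed the same split, with a log2 fold change of -0.30 (standard error 0.34, adjusted p = 0.850 in edgeR), which was -0.67 without preeclampsia library 1 and -0.04 without library 2. All 2912 bases of Mrpl28 lie within Pgap6 on the same strand in the deposited table. Mrps6, whose levels are given above, had a log2 fold change of -0.33 (standard error 0.36, adjusted p = 0.848 in edgeR), which was -0.81 without preeclampsia library 1. Mrpl33 had a log2 fold change of -0.26 (standard error 0.28, adjusted p = 0.848 in edgeR), which turned to 0.06 without control library 3. Mrpl41, a mitochondria-specific protein of the large subunit, had 10.2, 6.77 and 7.94 FPKM in the preeclampsia libraries and 8.80, 11.6 and 9.0 FPKM in the control libraries. Its groups overlapped, and its log2 fold change was -0.22 with a standard error of 0.19 and an adjusted p of 0.795 in edgeR. The abundant Mrpl3 had -0.14 with a standard error of 0.13 and an adjusted p of 0.818 in edgeR.

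The smallest ranges over the 6 libraries belonged to 3 members. Mrpl40, a mitochondria-specific protein of the large subunit, had 7.28, 7.16 and 7.59 FPKM in the preeclampsia libraries and 6.84, 7.27 and 6.98 FPKM in the control libraries. Mrps5, the homologue of bacterial S5, had 2.05, 1.88 and 2.00 FPKM in the preeclampsia libraries and 1.76, 2.17 and 1.93 FPKM in the control libraries. Mrps21, the homologue of bacterial S21, had 12.1, 13.3 and 12.7 FPKM in the preeclampsia libraries and 11.96, 12.2 and 14.5 FPKM in the control libraries. Their libraries overlapped, and their log2 fold changes were 0.08 for Mrpl40, 0.04 for Mrps5 and -0.0007 for Mrps21.

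The remaining members of known role also overlapped between groups. Mrps12, a protein of the decoding centre, had 22.4, 22.3 and 21.2 FPKM in the preeclampsia libraries and 19.8, 25.7 and 23.3 FPKM in the control libraries, with a log2 fold change of -0.04. Mrpl45, which helps hold the mitoribosome at the inner membrane, had 19.6, 13.9 and 13.8 FPKM in the preeclampsia libraries and 14.4, 14.6 and 17.1 FPKM in the control libraries, with a log2 fold change of 0.06. Mrpl44, which resembles ribonuclease III, had 8.74, 6.58 and 6.56 FPKM in the preeclampsia libraries and 6.88, 7.91 and 7.13 FPKM in the control libraries, with a log2 fold change of 0.01. Mrpl45 and Mrpl44 were again highest in preeclampsia library 1. Mrps30, whose product sits in the large subunit despite its name, had 29.5, 21.8 and 20.5 FPKM in the preeclampsia libraries and 22.4, 26.9 and 22.8 FPKM in the control libraries, with a log2 fold change of 0.0064. Mrps27, a pentatricopeptide repeat protein, had 20.1, 18.0 and 21.8 FPKM in the preeclampsia libraries and 20.6, 17.3 and 17.3 FPKM in the control libraries, with a log2 fold change of 0.13. Mrps22, a mitochondria-specific protein of the small subunit, had 6.37, 5.63 and 5.04 FPKM in the preeclampsia libraries and 5.72, 6.28 and 4.78 FPKM in the control libraries, with a log2 fold change of 0.04. The 95% intervals of these 6 all stayed within 2-fold either way. The 3 genes spelled in lower case were not called either, with log2 fold changes between -0.08 and 0.14 and a smallest adjusted p of 0.823 in edgeR.

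The genes around the mitoribosome were set beside it from lists of the pathway. In each of the lists edgeR and DESeq2 called 0 genes at an adjusted p under 0.05, as for the members. Over all genes tested, 9.19% had an unadjusted p under 0.05 in edgeR, and in 8.32% every preeclampsia library lay below every control library. The medians of most lists moved by more than 1.5 times when 1 library was left out, and their lowest and highest values are given beside them. The mitoribosomal proteins with other symbols, Dap3, Chchd1, Aurkaip1, Ptcd3 and Gadd45gip1, had 3 higher and 2 lower, with a median log2 fold change of 0.09 (0.03 to 0.11 with 1 library left out). Dap3, the GTP-binding protein of the small subunit, had 18.6, 15.2 and 16.9 FPKM in the preeclampsia libraries and 14.6, 14.5 and 17.3 FPKM in the control libraries, which overlapped. Of 30 assembly factors 14 were higher and 16 lower, with a median of -0.0052 (-0.05 to 0.02 with 1 library left out), which was 0.0057 under the scaling of DESeq2. Among them 1 had an unadjusted p under 0.05, and in 3 every preeclampsia library lay below every control library. The gene of smallest p was Mterf3, needed for assembly of the large subunit, with 8.64, 6.51 and 6.70 FPKM in the preeclampsia libraries and 9.04, 10.6 and 11.2 FPKM in the control libraries. All preeclampsia libraries lay below the control libraries, with a log2 fold change of -0.48 (standard error 0.15, adjusted p = 0.471 in edgeR).

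Of the 15 translation factors tested 8 were higher and 7 lower, with a median of 0.07 (-0.10 without preeclampsia library 1 to 0.11 without preeclampsia library 3), and 1 had an unadjusted p under 0.05. The smallest p belonged to Mrrf, the ribosome recycling factor of mitochondria, which frees the subunits after termination. Mrrf had 12.1, 9.62 and 9.49 FPKM in the preeclampsia libraries and 15.1, 13.8 and 15.4 FPKM in the control libraries. The groups did not overlap, and the log2 fold change was -0.49 with a standard error of 0.14 and an adjusted p of 0.458 in edgeR. The other lists also held no call. Of 19 genes tested in the list of mitochondrial aminoacyl-tRNA synthetases 5 were higher and 14 lower, with a median of -0.10 (-0.18 without preeclampsia library 1 to -0.03 without preeclampsia library 3). This list also holds the amidotransferase subunits Qrsl1, Gatb and Gatc, which are not synthetases, with log2 fold changes of -0.22, -0.17 and -0.016. The smallest adjusted p in the list was 0.755 in edgeR, for Aars2. Of 6 genes of mitochondrial transcription 1 was higher and 5 lower, with a median of -0.06 (-0.19 without preeclampsia library 1 to -0.02 without preeclampsia library 3). Their smallest adjusted p was 0.634 in edgeR, for Mterf2. Of 9 regulators of mitochondrial biogenesis 6 were higher and 3 lower, with a median of 0.03 (-0.02 without preeclampsia library 1 to 0.18 without preeclampsia library 3). Log2 fold changes of the 9 ran between -0.76 and 0.27, and their smallest adjusted p was 0.732 in edgeR. The factor gene Nrf1 had 13.2, 9.06 and 9.33 FPKM in the preeclampsia libraries and 8.46, 10.1 and 7.91 FPKM in the control libraries. The groups of Nrf1 overlapped, and like many members it was highest in preeclampsia library 1. Any part of Nrf1 in the levels of the members was not tested.

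The 13 mRNAs that the mitoribosome translates were all lower in preeclampsia, without any passing the test. Their log2 fold changes ran between -0.39 and -0.07, with a median of -0.24, and 2 had an unadjusted p under 0.05 in edgeR, where 9.19% of all genes tested did. All 13 were lower under total counts, upper-quartile scaling and DESeq2, and without preeclampsia library 1, where the median was -0.32. Without preeclampsia library 2 it was 10 of 13, with a median of -0.18, and without control library 1 it was 11 of 13, with a median of -0.19. In 5 of them, ND4, ND4L, ND5, ND6 and COX1, every preeclampsia library lay below every control library, as in 8.32% of all genes tested. The 13 share the mitochondrial genome and its transcription, so these counts are not those of 13 separate results. ND6, a subunit of respiratory complex I, had the smallest p, with 71.9, 64.6 and 62.9 FPKM in the preeclampsia libraries and 86.3, 96.9 and 81.2 FPKM in the control libraries. Its log2 fold change was -0.39 with a standard error of 0.12 and an adjusted p of 0.470 in edgeR. The mRNA was enriched on oligo(dT), and whether the counting used strand is not stated. The part of capture and of reads from the other strand in the levels of these 13 mRNAs was not tested. The nuclear-encoded members thus had a median of 0.07 beside -0.24 for the mRNAs of the mitochondrial genome, and the difference between the 2 lists was not tested.

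**Figure D5:**
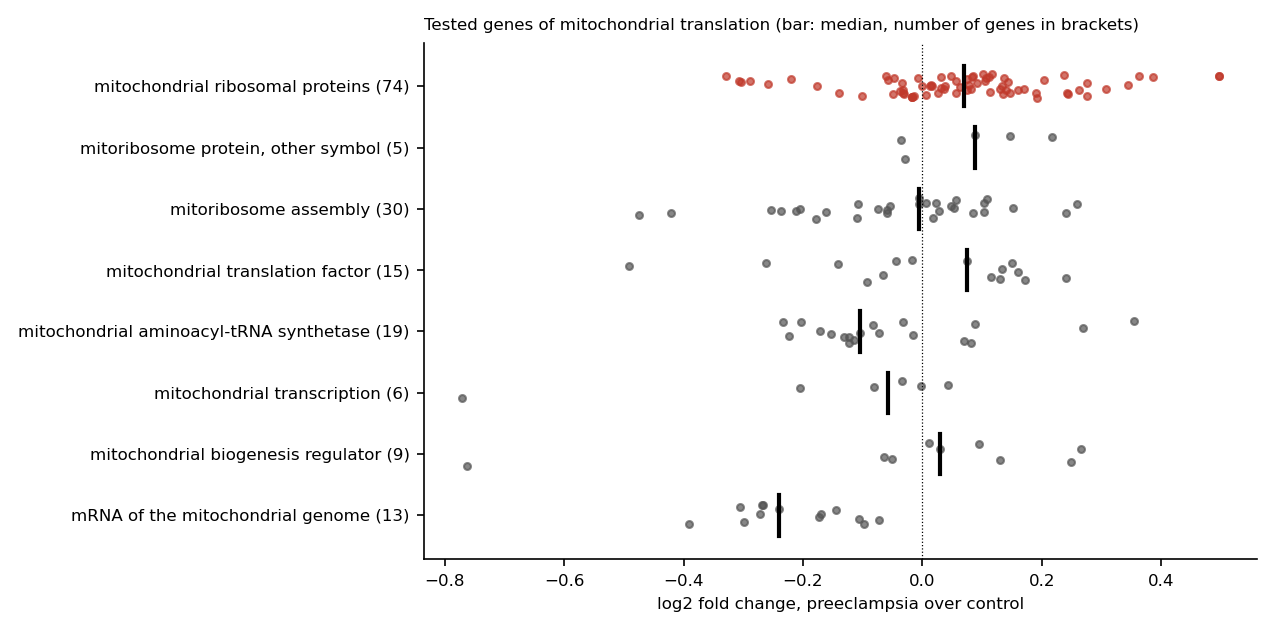
Log2 fold change, preeclampsia over control, of each tested gene in the mitoribosomal protein list (red) and in 7 lists of mitochondrial translation and its surroundings (grey); each point is 1 gene, the bar is the median of the list and the number of genes stands in brackets. The members' median is 0.07 and that of the 13 mRNAs of the mitochondrial genome is -0.24, and no gene in any list was called. The list of aminoacyl-tRNA synthetases also holds the amidotransferase subunits Qrsl1, Gatb and Gatc.

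By the table's coordinates the members lay on 19 chromosomes, with 12 on chromosome 1 and 12 on chromosome 10. Mitoribosomal protein genes are known for processed pseudogenes, whose reads the counting may have split from those of the members. The 4 members that share annotated bases with a gene on the same strand are Mrpl28, Mrpl33, Mrpl53 and Mrps6.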

How the data were processed

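RNA of 3 preeclampsia and 3 control libraries of rat amniotic fluid cells was measured. Per the labels, mRNA was enriched on oligo(dT), fragmented and joined to adapters with molecular identifiers. The sources used here do not say whether those identifiers were used in counting. HISAT2 2.2.1, StringTie 2.1.6, cutadapt 1.9 and FastQC are listed in the submitters' processing notes, with no settings. The genome build was not given in the sources used here. For each gene and library the authors deposited both a count and an FPKM level, per the file headers. Among counts of 1 to 15, 36.9% were multiples of 4, against 20% if evenly spread, so the deposited counts may derive from coverage, which makes small counts uncertain.

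After filterByExpr and TMM scaling, counts were fitted by group with edgeR 4.0.16 (R 4.3.3). Its quasi-likelihood p-values were adjusted by Benjamini-Hochberg over 15776 genes, and genes were called under 0.05. Fold changes are preeclampsia over control. The standard error is the size of the log2 fold change divided by the square root of the F statistic of its test. It is thus computed back from the test, and the 95% intervals use it with the degrees of freedom of the same fit. With a biological coefficient of variation of 0.418, the spread between libraries limited the precision more than depth did. Depths are in the report, and no 2 libraries were duplicates (smallest chi-square per degree of freedom 140). Alternatives were DESeq2 1.42.0, no filter, other scalings, limma 3.58.1 on log2(FPKM + pseudocount) where mean FPKM reached 1, the replicate number as a block, and each library left out. Scripts were tested on simulated data.

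The members and lists were chosen with earlier results of these data known. Named members were those called, the 5 of smallest p in each direction, the 3 highest and 3 lowest in level, any that failed the filter, the 3 of largest and 3 of smallest range over the libraries, and a set with known roles; in other lists, the gene of smallest p. Further genes are named to say which were counted. Promoters were matched to RefSeq (GRCr8) by gene identifier, and by symbol where the identifier was absent. Where a gene had several, the first was used. Assignment to subunits was by textbook knowledge, and Mrps36 and Mrps21l were not assigned.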

Additional observations from a re-analysis of the deposited data

How the results depend on the processing

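No member and no gene of the other mitochondrial lists was called under any alternative run. The count of members higher in preeclampsia lay between 46 and 52 under the other tools, filters, scalings and pseudocounts, and the median log2 fold change between 0.04 and 0.08. Correlations of deviations between same-numbered libraries of the 2 groups were 0.048, 0.041 and 0.010, against -0.080 to 0.035 between differently numbered ones. These values cannot settle whether the libraries were paired, since no pair known to share handling was there to set beside them. With a replicate block 49 members were higher, with a median of 0.061. With 1 library left out, 39 to 58 members were higher and the median was 0.022 to 0.114. In those runs 8 to 16 members, against 5, did not overlap, with fewer samples to separate. Total counts gave 6 such members, and TMM-scaled CPM, added after seeing the data, gave 5, with Mrps18c in place of Mrpl47. Of 403 values of the 29 named members under alternatives, 373 kept their sign and 30 changed it, in 12 members, none of which had a log2 fold change above 0.26 in size; the cause was not tested. Mrpl44 turned to -0.0001 with total counts and to -0.0108, -0.0120 and -0.0132 in limma with pseudocounts of 1, 0.5 and 0.1. Mrps30 turned to -0.0059 with total counts, -0.0052 with upper-quartile scaling, -0.0206, -0.0213 and -0.0219 in limma and -0.0029 with the replicate block. Mrps21 turned to 0.0094 in DESeq2 and 0.0010 without the filter. With 1 library left out, log2 fold changes ran from -0.0585 to 0.0444 for Mrpl10, -0.2103 to 0.2988 for Mrpl12, -0.4358 to 0.0636 for Mrpl33, -0.108 to 0.0763 for Mrpl44, -0.1001 to 0.1353 for Mrpl45, -0.0831 to 0.0971 for Mrpl49, -0.1042 to 0.0463 for Mrps12, -0.0972 to 0.1667 for Mrps18b, -0.0579 to 0.0757 for Mrps21, -0.0732 to 0.1222 for Mrps22, -0.1418 to 0.099 for Mrps30 and -0.0032 to 0.1134 for Mrps5. Limits are the 3 libraries per group, the counts that may derive from coverage, and members that share annotated bases with other genes.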
